A study of Mus musculus with 58 samples.

Results

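Clu, Aldh1a1, Nupr1, Sbspon, Plscr2, Jam2, Ehd3, Fhl1, Alcam and Neo1 are 10 of the 180 genes in the raised arm of a published aging signature of hematopoietic stem cells (HSCs), the cells that maintain all blood lineages. The 10 were taken by symbol, out of 55376 symbols in the count tables, and all 10 passed the filter on low counts in every comparison. RNA was sequenced from HSCs of male C57BL/6 mice, sorted as living LSK CD34- Flk2- CD150+ cells. Old mice of 24 to 26 months were fed ad lib (OAL, 4 libraries), held on lifelong 40% caloric restriction (OCR, 4 libraries), or returned from restriction to ad lib food for 4 weeks (OCRRF, 2 libraries). Young mice of 3 to 4 months were fed ad lib (YAL), restricted for 4 weeks, ending at 40% (YCR), or refed ad lib for 4 weeks afterwards (YCRRF), with 4 libraries in each group. The second experiment used HSCs of aged mice that carried lentiviral short hairpin RNAs and had been transplanted into lethally irradiated young female recipients, from which donor LSK CD48- CD150+ CD45.2+ cells were sorted. Its groups were a GFP scramble (2 libraries), 1 hairpin against Kdr (4 libraries), a double scramble (2 libraries), and that Kdr hairpin combined with Bmpr1a hairpin 1 or hairpin 2 (2 libraries each). Those cells had passed through an irradiated host, were sorted by other markers and were sequenced from another kind of library, so the experiments were not compared with each other. The labels do not tie libraries to individual mice, so the tests measure the spread between libraries.

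With age, the HSC pool gains cells that are marked by platelet-lineage, adhesion and stress genes and that rebuild lymphoid blood poorly. The 10 genes belong to several processes. Clu encodes clusterin, a secreted chaperone taken up through lipoprotein receptors, and Sbspon encodes a matrix protein with somatomedin B and thrombospondin domains. Aldh1a1 oxidises retinaldehyde to retinoic acid, and Nupr1 is a small nuclear protein induced by stress. Plscr2 belongs to the phospholipid scramblases and Ehd3 to the EHD ATPases of endocytic recycling. Jam2 and Alcam (CD166) are immunoglobulin-type adhesion molecules, Fhl1 is a LIM-only protein of the cytoskeleton, and Neo1 encodes neogenin, a receptor for netrins and repulsive guidance molecules.

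The genes lie on 8 chromosomes of mm10 (Clu 14, Aldh1a1 19, Nupr1 7, Sbspon 1, Plscr2 and Neo1 9, Jam2 and Alcam 16, Ehd3 17, Fhl1 X). RefSeq promoter sequences on GRCm38 (mm10) were at hand for 6 of them, with 8 start sites in all: Aldh1a1 and Fhl1 with 2 each, and Nupr1, Ehd3, Alcam and Neo1. Clu, Sbspon, Plscr2 and Jam2 were not in the table. The 4 promoters below include the most GC-rich of the 8 and 1 of the GC-poor ones, and their chromatin is described further on. Each run is the 250 bases before the start site, 5′ to 3′ on the strand of the gene. Capitals mark matches, on either strand, to GAGGAA (a PU.1 core), GGGCGG (a GC box) or TGATGNAA (an ATF4/CHOP core).
Nupr1, chr7:126625471-126625720, minus strand: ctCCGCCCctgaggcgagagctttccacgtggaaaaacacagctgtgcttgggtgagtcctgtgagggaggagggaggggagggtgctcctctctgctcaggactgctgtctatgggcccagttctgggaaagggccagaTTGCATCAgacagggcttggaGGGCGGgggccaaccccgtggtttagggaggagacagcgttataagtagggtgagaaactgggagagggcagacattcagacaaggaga
Alcam, chr16:52453082-52453331, minus strand: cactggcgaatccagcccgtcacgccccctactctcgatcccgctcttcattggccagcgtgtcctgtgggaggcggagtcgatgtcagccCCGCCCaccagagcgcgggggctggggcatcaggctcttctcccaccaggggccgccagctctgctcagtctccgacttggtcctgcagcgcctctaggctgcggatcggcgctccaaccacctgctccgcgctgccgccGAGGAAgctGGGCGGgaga
Neo1, chr9:59036442-59036691, minus strand: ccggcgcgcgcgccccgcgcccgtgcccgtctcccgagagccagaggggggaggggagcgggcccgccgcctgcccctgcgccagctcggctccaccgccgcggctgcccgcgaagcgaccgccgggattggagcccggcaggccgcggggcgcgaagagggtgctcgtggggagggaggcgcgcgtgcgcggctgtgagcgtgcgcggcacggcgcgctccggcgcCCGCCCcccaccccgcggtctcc
Aldh1a1, chr19:20601718-20601967, plus strand: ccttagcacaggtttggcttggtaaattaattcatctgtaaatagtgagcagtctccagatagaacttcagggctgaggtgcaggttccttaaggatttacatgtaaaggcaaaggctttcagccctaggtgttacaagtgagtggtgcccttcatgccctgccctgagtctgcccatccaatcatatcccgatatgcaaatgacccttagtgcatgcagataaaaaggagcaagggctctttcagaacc
The Neo1 promoter was 83.2% G and C with 45 CpG dinucleotides, above 99.6% of the 32851 mouse promoters in the table, whose median was 52.4%. Alcam followed at 69.2% with 22 CpGs, and Ehd3 and Nupr1 (59.2%) were also above the median. The remaining 4 start sites, of Aldh1a1 and Fhl1, lay between 42.8% and 49.2%, below it. Across the 8 promoters, GAGGAA occurred only in Alcam, 19 bases before the start, where it stands next to a GC box. It occurred in 23.3% of all promoters. GC boxes were found in Alcam, Neo1 and Nupr1 and in 32.7% of all promoters, and TGATGNAA in Nupr1 alone, 110 bases before the start, against 3.45% of all promoters. Letters in a window are not sites of binding.

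Native libraries held 11102898 to 36579392 counts and transplanted libraries 35657999 to 44780217. Young libraries detected 22209 to 33496 genes and old ones 42071 to 46646, so age cannot be told apart from this difference between libraries in any comparison of old with young. The third YCRRF library stood apart: its median Pearson r with the other native libraries was 0.853 over 12100 genes, against 0.928 to 0.949 for the others. It is named wherever it matters. The 12 HSC markers checked (Procr, Slamf1, Hlf, Mecom and others) were detected in every group, with sums of 4074 to 5730 CPM (counts relative to library size, scaled by TMM) in native libraries. HSC abundance and RNA per cell cannot be told apart in bulk RNA.

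At the level of RNA per kilobase of exon, the most abundant of the 10 in OAL HSCs was Nupr1, with a mean of 86.7 CPM per kb. Aldh1a1 (69.8), Clu (56.9), Fhl1 (44.1) and Plscr2 (33.5 CPM per kb) followed. The lower part of the order was Ehd3 at 29.3, Sbspon at 26.5, Alcam at 20.9, Jam2 at 18.0 and Neo1 at 8.74 CPM per kb. Further levels are CPM, not divided by length, unless stated otherwise.

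**Figure D1:**
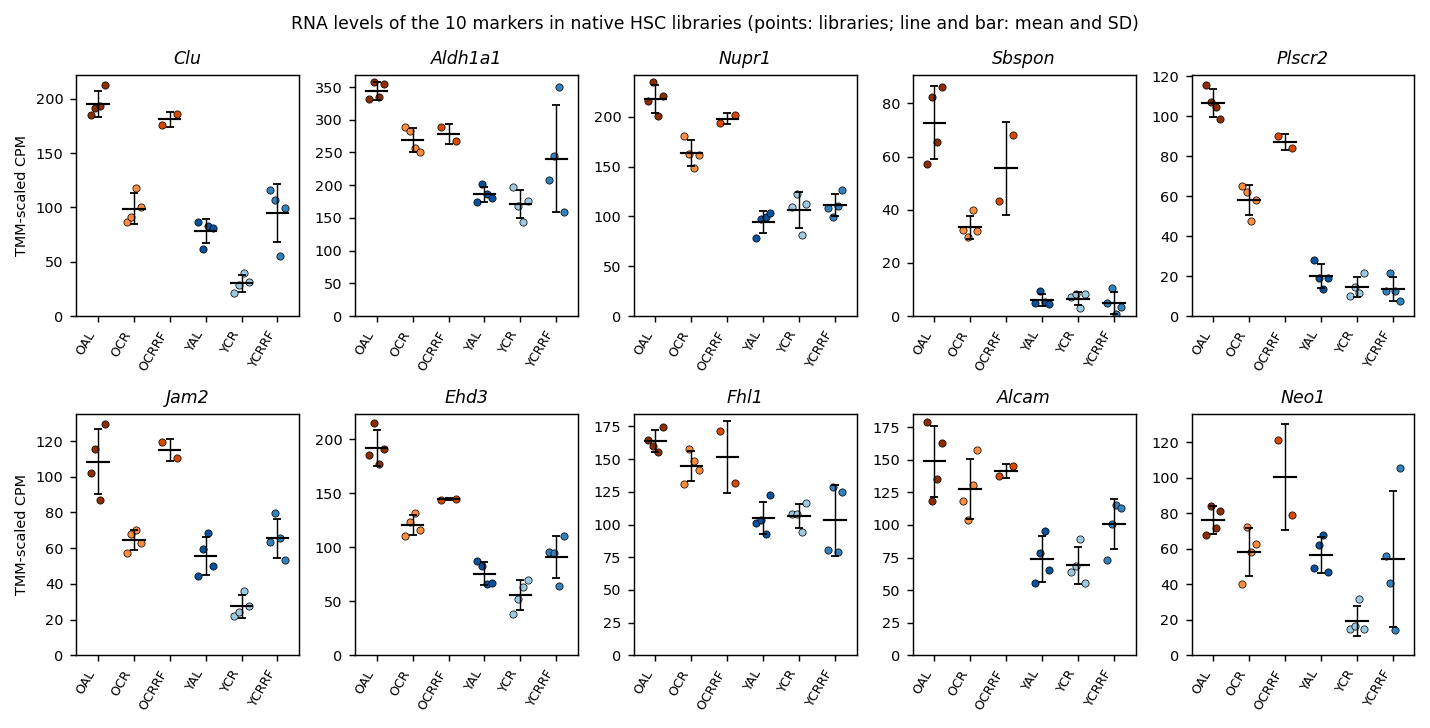
TMM-scaled CPM of each gene in the 22 native libraries by diet group (points are libraries, the line and bar are the mean and SD). Sbspon and Plscr2 sat far above the young groups in all old libraries, and the 4 YCR libraries were the lowest group for Clu, Jam2 and Neo1.

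All 10 genes were higher in OAL than in YAL HSCs by edgeR (adjusted p below 0.05 and fold above 1.2, here and below unless stated), where 6.89% of all genes tested were called higher. The 10 come from a list of genes raised with age and were chosen with earlier results of these data known. Their share is therefore no independent evidence of a rise with age. The groups did not overlap for 9 of the 10, against 15.3% of all genes, and the exception was Neo1. Sbspon differed most. Its CPM was 57.1, 82.4, 65.4 and 86.2 in OAL and 4.96, 9.39, 5.17 and 4.61 in YAL, a 12.0-fold difference (log2 3.59 ± 0.24 SE, adjusted p = 1.11e-05). The lowest OAL library of this matrix gene was far above the highest YAL library. The scramblase Plscr2 had 115, 107, 105 and 98.7 CPM in OAL and 28.3, 18.8, 13.8 and 19.0 in YAL, 5.41-fold higher (log2 2.44 ± 0.19, adjusted p = 2.75e-05). Ehd3, Clu, Nupr1 and Alcam were 2.56-, 2.52-, 2.32- and 2.03-fold higher in OAL. Jam2 was 1.96-fold higher, Aldh1a1 1.87-fold and Fhl1 1.57-fold. Neo1 had the smallest difference, 67.6, 84.0, 71.6 and 81.3 CPM in OAL against 49.1, 62.2, 67.8 and 46.8 in YAL (log2 0.44 ± 0.13, adjusted p = 0.0415), and its ranges touched, so that the highest YAL value exceeded the lowest OAL value. Neo1 lost its call when any 1 OAL library, or YAL replicate 1 or 4, was left out (adjusted p 0.0649 to 0.128). All 10 were also called higher by DESeq2 and by edgeR with TMM factors taken from genes averaging at least 5 CPM. The split of all genes moved, from 1620 higher and 1866 lower to 2857 and 1897 by DESeq2, which also differs in its test, and to 1870 and 784 with those TMM factors alone. That rescaling raised the median log2 difference of all genes by 0.11 here and by 0.11 to 0.14 in OCR against YAL or YCR and in OCRRF against OCR or OAL. Of all genes, 7.93% were called lower in OAL than in YAL. Of the marker genes, 7 of 10 progenitor markers were called lower in OAL than in YAL and 1 higher, with sums of 142 to 166 CPM against 257 to 528. Of 8 S and G2/M genes, 5 were lower (306 to 328 CPM against 467 to 538), and platelet markers, which HSCs also express, summed to 757 to 1000 CPM in OAL and 515 to 642 in YAL. Their part in the difference of the 10 was not tested.

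Lifelong restriction lowered 7 of the 10 in old HSCs, and none was higher. In this comparison 3.03% of all genes were called lower (689 genes higher and 822 lower in all, or 894 and 697 with the TMM factors from genes of at least 5 CPM, which also called 7 of the 10). The median log2 difference between OCR and OAL was -0.53 over the 10 and 0.02 over all genes tested. The groups did not overlap for the same 7 genes, against 7.13% of all genes that were lower without overlap. Because the 10 were chosen with earlier results of these data known, these shares describe them and are no independent test.

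The secreted and matrix genes fell most. Clu read 185, 192, 193 and 213 CPM in OAL and 86.4, 91.5, 118 and 100 in OCR, 1.96-fold lower (log2 -0.97 ± 0.09, adjusted p = 1.13e-08). Sbspon had 32.5, 29.7, 39.8 and 31.9 CPM in OCR, 2.15-fold lower than in OAL (log2 -1.11 ± 0.11, adjusted p = 7.64e-08). All 4 OCR libraries lay below all 4 OAL libraries for both genes. Next came Plscr2, Jam2 and Ehd3. Plscr2 had 64.9, 62.2, 47.7 and 58.2 CPM in OCR, 1.81-fold lower (log2 -0.85 ± 0.09, adjusted p = 3.03e-07). Jam2 read 102, 115, 87.2 and 130 CPM in OAL and 57.1, 67.9, 70.2 and 62.9 in OCR (log2 -0.73 ± 0.10, adjusted p = 1.07e-05). Ehd3 read 186, 215, 177 and 191 CPM in OAL and 111, 123, 132 and 116 in OCR (log2 -0.66 ± 0.08, adjusted p = 2.49e-06). Again no OCR library reached the OAL range.

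Smaller falls were seen for the stress gene Nupr1 and the retinoic acid enzyme Aldh1a1. Nupr1 dropped from 215, 234, 201 and 221 to 180, 163, 149 and 162 CPM (log2 -0.40 ± 0.08, adjusted p = 0.00200). Aldh1a1 dropped from 331, 358, 334 and 355 to 288, 282, 257 and 251 CPM (log2 -0.34 ± 0.08, adjusted p = 0.00658). The remaining 3 genes overlapped between diets and missed the threshold. Neo1 had 40.1, 72.2, 58.2 and 62.5 CPM in OCR (log2 -0.37 ± 0.12, adjusted p = 0.0749). Alcam read 179, 118, 135 and 163 CPM in OAL and 118, 104, 131 and 158 in OCR (log2 -0.21 ± 0.12, adjusted p = 0.404). Fhl1 read 165, 160, 155 and 175 against 131, 158, 149 and 142 CPM (log2 -0.16 ± 0.08, adjusted p = 0.313). DESeq2 called the same number, 7, and leaving out 1 library at a time gave 7 or 8. In 1 fit of all 6 native groups, where the young libraries enter the estimate of the spread, 3 of the 7 passed: Clu, Jam2 and Ehd3.

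Set against OAL, OCR levels were 50.6% for Clu, 46.0% for Sbspon and 54.7% for Plscr2, and 78.3% for Aldh1a1. Relative to young mice fed ad lib, OCR remained higher for 7 genes (8.88% of all genes were called higher there): Aldh1a1, Nupr1, Sbspon, Plscr2, Ehd3, Fhl1 and Alcam. Sbspon was 5.64-fold and Plscr2 2.98-fold above YAL. Clu (log2 0.37 ± 0.14, adjusted p = 0.0805), Jam2 (0.24 ± 0.14, adjusted p = 0.239) and Neo1 (0.07 ± 0.18, adjusted p = 0.817) did not pass, although DESeq2 called Clu higher (adjusted p = 0.0211). Against young mice on restriction, all 10 were higher in OCR, with 3.26% of all genes called and 12.1% without overlap, and the ranges of all 10 were apart. With the TMM factors from genes of at least 5 CPM, the split of all genes moved from 2120 higher and 2226 lower to 2626 and 995 against YAL, and from 795 and 1202 to 1017 and 596 against YCR. These comparisons share the OCR libraries.

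**Figure D2:**
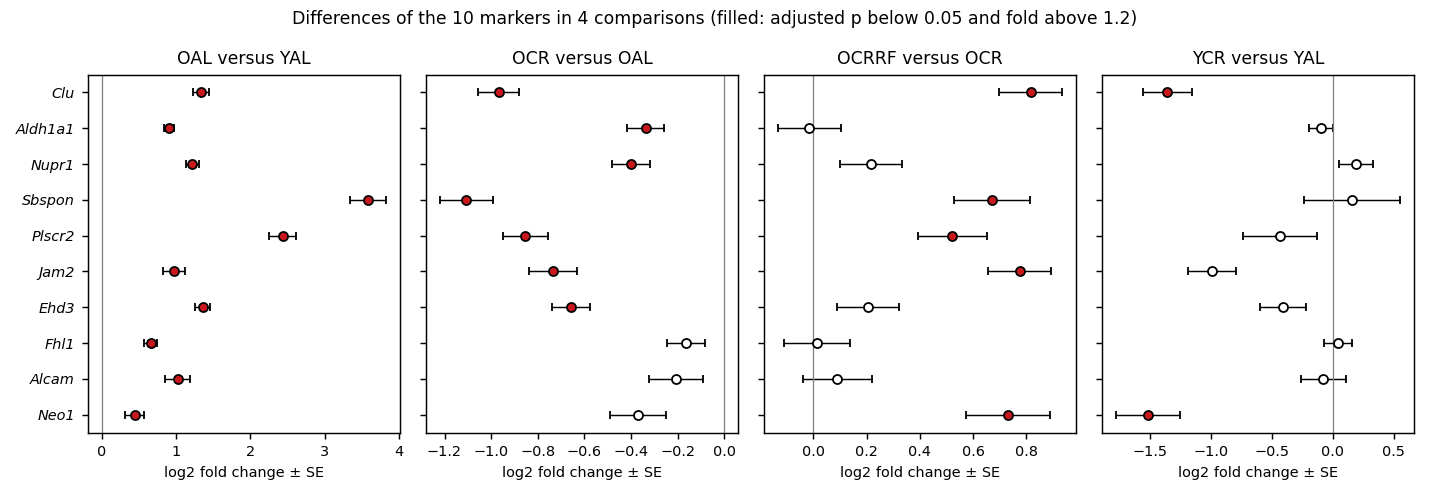
Log2 fold change ± SE by edgeR for the 10 genes in 4 comparisons, each panel with its own scale (filled points were called). All 10 points are filled in OAL versus YAL, 7 in OCR versus OAL, 5 in OCRRF versus OCR and 2, Clu and Neo1, in YCR versus YAL.

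Cycling genes and HSC markers differed between OAL and OCR HSCs. The summed HSC markers overlapped the OAL range in OCR and lay below it after refeeding. The summed level of 8 S and G2/M genes (Mki67, Top2a, Ccnb1 and others) was 306 to 328 CPM in OAL, 655 to 918 in OCR and 269 to 298 in OCRRF. All 8 were called higher in OCR, where 2.54% of all genes were called higher and 3.03% lower. Of the 12 HSC markers, 5 were called lower in OCR than in OAL and none higher, with sums of 4717 to 5282 CPM in OAL, 4074 to 4745 in OCR and 4173 to 4256 in OCRRF. Progenitor markers (10 genes) summed to 142 to 166 CPM in OAL and 131 to 191 in OCR, granulocyte markers (7 genes) to 4.14 to 83.0 and 3.74 to 100, B, T and plasma cell markers (8 genes) to 5.04 to 51.5 and 4.48 to 9.30, and stroma and endothelium markers (10 genes) to 39.0 to 43.1 and 37.7 to 54.2. Erythroid markers (6 genes) summed to 31.4 to 210 CPM in OAL and 26.7 to 62.6 in OCR, and platelet markers (6 genes) to 757 to 1000 and 653 to 856. None of these markers was at 0 in every library of an old group. The part of these genes in the fall of the 10 was not tested.

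Refeeding old mice raised 5 of the 10 above OCR, where 0.694% of all genes were called higher (226 higher and 884 lower, or 341 and 575 with the TMM factors from genes of at least 5 CPM, which called 6 of the 10). The 2 OCRRF libraries had 176 and 186 CPM of Clu (log2 0.82 ± 0.12, adjusted p = 1.26e-05) and 119 and 110 CPM of Jam2 (0.77 ± 0.12, adjusted p = 2.93e-05). Both lay above every OCR library for each gene. Neo1 read 121 and 79.1 CPM (0.73 ± 0.16, adjusted p = 0.00370), Sbspon 43.3 and 68.0 CPM (0.67 ± 0.14, adjusted p = 0.00336), and Plscr2 90.04 and 84.27 CPM (0.52 ± 0.13, adjusted p = 0.0141). The OCRRF replicates of Neo1 and Sbspon were wide apart. Without OCRRF replicate 1, Neo1 (adjusted p = 0.523) and Plscr2 (adjusted p = 0.368) lost their calls and 3 genes remained, and without OCRRF replicate 2 Sbspon did (adjusted p = 0.565). Nupr1 (194 and 202 CPM) and Ehd3 (144 and 145 CPM) also exceeded every OCR library but did not pass (adjusted p = 0.349 and 0.370). In all, 7 genes did not overlap, against 17.5% of all genes with this small group. Aldh1a1 (289 and 267 CPM), Fhl1 (171 and 132) and Alcam (137 and 145) overlapped OCR. DESeq2 called 4 of the 5, not Neo1, and 1 fit of the 6 native groups called 0, with all 5 still higher.

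Compared with OAL, refed HSCs stood at 92.7% for Clu and 81.9% for Plscr2. Aldh1a1 (log2 -0.32 ± 0.07, adjusted p = 0.0257), Ehd3 (-0.42 ± 0.08, adjusted p = 0.0188) and Plscr2 (-0.30 ± 0.08, adjusted p = 0.0438) were called lower, against 2.48% of all genes, and did not overlap OAL, against 15.8%. DESeq2 called the same 3, but it called 9.47% of all genes lower. With the TMM factors from genes of at least 5 CPM none of the 3 passed and Neo1 was called higher (log2 0.53, adjusted p = 0.0287), with 754 of all genes higher and 54 lower in place of 528 and 788. Leaving out 1 library at a time left none of the 3, except Ehd3 without OAL replicate 3 or 4, and called Neo1 higher without OCRRF replicate 2. For Clu (-0.12 ± 0.07) and Jam2 (0.07 ± 0.11) no difference was detected between OCRRF and OAL (adjusted p = 0.281 and 0.721). Since OCRRF was compared with both groups, the comparisons share libraries.

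In young HSCs, 4 weeks of restriction lowered Clu and Neo1, where 0.193% of all genes were called lower. Clu read 87.0, 61.6, 83.3 and 81.3 CPM in YAL and 21.0, 28.3, 39.7 and 31.3 in YCR, 2.57-fold lower (log2 -1.36 ± 0.20, adjusted p = 0.0263). Neo1 dropped to 14.7, 16.6, 31.7 and 14.7 CPM in YCR, 2.87-fold lower (log2 -1.52 ± 0.26, adjusted p = 0.0464). Jam2 read 44.7, 59.8, 68.2 and 49.9 CPM in YAL and 21.9, 24.1, 36.2 and 27.8 in YCR, with the ranges apart, but missed the edgeR threshold (log2 -0.99 ± 0.20, adjusted p = 0.0784) and passed in DESeq2 (adjusted p = 0.000227), which called 1.45% of all genes lower. These 3 genes were lower without overlap, against 3.83% of all genes. With 48 genes called in all, the calls of Clu and Neo1 were at the threshold: 6 of the 8 fits without 1 library called neither, and the 2 that called any left out YCR replicate 1 (1 call) or YCR replicate 3 (both). Sbspon (log2 0.16 ± 0.40) and Plscr2 (-0.43 ± 0.30), which fell with restriction in old mice, overlapped between YCR and YAL, at 2.91 to 8.35 and 10.0 to 21.8 CPM in YCR. In YCR, B, T and plasma cell markers summed to 13.3 to 359 CPM, against 8.94 to 54.4 in YAL, and S and G2/M genes to 635 to 705, against 467 to 538. Retnlg, a granulocyte marker, was at 0 in all 4 YCR libraries. The part of these differences was not tested.

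After refeeding, young HSCs had 116, 107, 55.8 and 99.3 CPM of Clu and 63.2, 79.6, 65.7 and 53.4 CPM of Jam2, all above every YCR library. By edgeR none of the 10 was called against YCR, and 0.0102% of all genes were called higher. At an unadjusted p below 0.05 were 6 of the 10, and 1420 of all 19535 genes tested. DESeq2, which called 0.799% of all genes higher, called 2, Clu (adjusted p = 1.49e-06) and Jam2 (adjusted p = 2.20e-05), and these were also the only ones of the 10 without overlap, against 2.99% of all genes. Without the third YCRRF library, edgeR called Clu (log2 1.82 ± 0.20, adjusted p = 0.0134). That library had the lowest Clu, Sbspon (0.918 CPM) and Neo1 (14.3 CPM) of its group and the highest Aldh1a1 (351 CPM). Granulocyte markers summed to 259 to 1320 CPM in YCRRF and to 2.15 to 274 in YCR. S and G2/M genes summed to 205 to 494 CPM in YCRRF and 635 to 705 in YCR, with 6 of 8 at an unadjusted p below 0.05 and none called, and B, T and plasma cell markers to 2.28 to 15.0 and 13.3 to 359. The part of these genes was not tested. Between YCRRF and YAL, edgeR and DESeq2 called none of the 10, none of them was without overlap, and edgeR called 0.0% of all genes. At an unadjusted p below 0.05 was 1 of the 10, and 714 of all 19334 genes tested. With or without the third YCRRF library edgeR called none there.

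The difference between the old and young responses to restriction was itself tested. By edgeR none of the 10 passed, against 0.0424% of all genes in either direction. An unadjusted p below 0.05 was reached by 3 of the 10 and by 2531 of all 28328 genes tested. The log2 difference of responses was 1.17 ± 0.30 for Neo1 (adjusted p = 0.242), and this was the gene that DESeq2 called (adjusted p = 0.0311). For Sbspon the difference of responses was -1.24 ± 0.37 (adjusted p = 0.323) and for Nupr1 -0.58 ± 0.16 (adjusted p = 0.263). For Clu the difference was 0.41 ± 0.22 and for Jam2 0.28 ± 0.22. Lifelong and 4-week restriction differ in duration as well as in age.

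The other 170 raised genes of the same published signature were counted next. The signature was defined by change with age, and its lists were chosen with earlier results of these data known. The counts therefore describe these genes and are no independent test. In OCR against OAL, 90 were called lower and 1 higher (3.03% and 2.54% of all genes), with a median log2 difference of -0.37 against 0.02 over all genes. In OAL against YAL, edgeR called 114 higher (6.89% of all genes) and none lower. An unadjusted p below 0.05 was seen for 133 of the 170, and for 7239 of all 23525 genes tested. In OCRRF against OCR 27 were higher and 5 lower (0.694% and 2.71% of all genes), and the median of the 170 was 0.14, against 0.11 over all genes. The 3 with the largest falls in OCR were Gpr183, an oxysterol receptor (120 to 41.2 CPM, 2.89-fold lower, adjusted p = 1.52e-10), the complement gene C4b (45.8 to 17.9 CPM, 2.53-fold lower) and Mab21l2 (16.9 to 7.05 CPM, 2.37-fold lower). The 1 gene that rose was the antiproliferative Btg2 (11.0 to 17.3 CPM, adjusted p = 0.0117). Of the 39 lowered signature genes, 33 were called lower in OAL than in YAL (7.93% of all genes). In OCR against OAL 17 of them were higher and 3 lower (2.54% and 3.03% of all genes), led by Rnase6, the cytokinesis gene Ect2 and Plac8 on the higher side and by Socs2, a cytokine signalling inhibitor, on the lower.

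Genes that share a pathway or family with the 10 were examined as a list of 76, of which 69 were tested in OCR against OAL. Called genes were 7 higher and 7 lower, where 2.54% of all genes were called higher and 3.03% lower, and their median log2 difference was -0.02, against 0.02 over all genes. In OAL against YAL, 10 of 68 tested were higher and 9 lower, where 6.89% of all genes were called higher and 7.93% lower. In OCRRF against OCR, 4 of 72 were higher and 8 lower, where 0.694% of all genes were called higher and 2.71% lower. The relatives are given by family below.

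Among 15 retinoid genes tested, 3 fell in OCR and none rose, where 3.03% of all genes were called lower and 2.54% higher. They were Rdh10, which makes retinaldehyde (63.3 to 40.7 CPM, log2 -0.62 ± 0.12, adjusted p = 0.00129), Dhrs3, which reduces it back (40.4 to 18.8 CPM, -1.09 ± 0.11, adjusted p = 7.48e-08), and Cyp26b1, which degrades retinoic acid (73.3 to 31.2 CPM, -1.21 ± 0.13, adjusted p = 2.31e-07). All 3 rose with refeeding, by log2 0.58, 0.57 and 0.81. Dhrs3 (log2 1.13) and Cyp26b1 (0.57) were also higher in OAL than in YAL, as was the receptor gene Rarb (0.58), whereas Rxrb was lower (-0.30). Among the scramblases, Plscr1 was lower in OCR (log2 -0.31 ± 0.08, adjusted p = 0.0178) and higher in OAL than in YAL (0.93 ± 0.12), and in the latter comparison Plscr4 was higher and Plscr3 lower (0.36 and -0.48).

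Of 7 partners of clusterin tested, 4 were called higher in OCR and 4 lower in OCRRF than in OCR (2.54% and 2.71% of all genes). Among them, the lipoprotein receptor gene Lrp8 (log2 0.59 ± 0.10) and the endoplasmic reticulum chaperones Hspa5 (0.76 ± 0.10) and Calr (0.54 ± 0.09) rose in OCR, where Clu fell, and all 3 fell after refeeding, by 0.67, 0.97 and 0.82 on the log2 scale. With age, Vldlr and Lrp2 were higher in OAL (2.71 and 2.18) and Hspa5 lower (-0.46). In the stress genes around Nupr1, the pseudokinase Trib3 fell in OCR (-0.996 ± 0.121) and the mitotic kinase Aurka rose (1.25 ± 0.15), and both reversed with refeeding (0.81 and -1.16). Trib3, Ddit3 and Msl1 were lower in OAL than in YAL (-0.49, -0.44 and -0.46), the opposite of Nupr1.

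In the netrin and neogenin list, Ntn4 (log2 -0.82 ± 0.15) and Unc5a (-0.76 ± 0.11), a netrin and a netrin receptor, fell in OCR, and Ntn4, Unc5c and Unc5d were higher in OAL than in YAL (1.47, 2.01 and 2.73). Of the adhesion relatives, Itga4, a partner of junctional adhesion molecules, rose in OCR (0.40 ± 0.09), as did Bcam (0.60 ± 0.12), and Jam3 was lower in OAL than in YAL (-0.77 ± 0.17). Ehd1 was also lower with age (-0.79 ± 0.21). Among the other EHD and FHL genes none was called in OCR against OAL by edgeR or DESeq2. Of 9 tested, 1 had an unadjusted p below 0.05, as did 4387 of all 27150 genes.

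Across the 22 native libraries the 10 genes followed each other to different degrees. Ehd3 had the highest Pearson r of log2 CPM with the mean of the other 9 (0.94) and Neo1 the lowest (0.68). The closest pair was Clu and Jam2 (r = 0.94), followed by Sbspon and Plscr2 (0.92). Within the 12 young libraries the r with the other 9 stayed at 0.85 for Clu, 0.82 for Jam2 and 0.77 for Ehd3. It was 0.58 for Neo1 and 0.36 for Alcam. For the remaining genes it was -0.10 (Sbspon), -0.08 (Nupr1), 0.01 (Fhl1), 0.02 (Plscr2) and 0.05 (Aldh1a1). Within the 10 old libraries Alcam had the lowest, 0.37. The genes outside the 10 whose log2 CPM was most like their mean z-score, among 12317 genes, were Selp (P-selectin, r = 0.96), Oxr1 (0.96), Gm16587 (0.96), Enpp5 (0.95) and Cysltr2 (0.95), and all but Gm16587 are in the raised signature. These values describe libraries that share diets, ages and depths.

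In transplanted HSCs the targeted genes were checked first. Kdr, which encodes VEGF receptor 2, read 6.04 and 6.07 CPM in the GFP scramble and 1.93, 2.21, 3.28 and 2.03 with the Kdr hairpin, 2.56-fold lower, and 3.97 and 4.62 in the double scramble against 0.555 to 1.60 with the double hairpins. Neither difference passed adjustment in edgeR (adjusted p = 0.247 and 0.272). Bmpr1a, a BMP receptor, read 5.21 and 4.43 CPM in the double scramble, 4.44 and 0.656 with hairpin 1 and 2.22 and 0.595 with hairpin 2, so that the library labelled KdrBmpr_sh1 replicate 1 was within the control range. KdrBmpr_sh1 replicate 2 stood apart for several of the 10 genes, with 60.2 CPM of Aldh1a1, 31.4 of Nupr1, 4.72 of Fhl1 and 37.3 of Alcam, each the lowest of the 12 transplanted libraries.

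**Figure D3:**
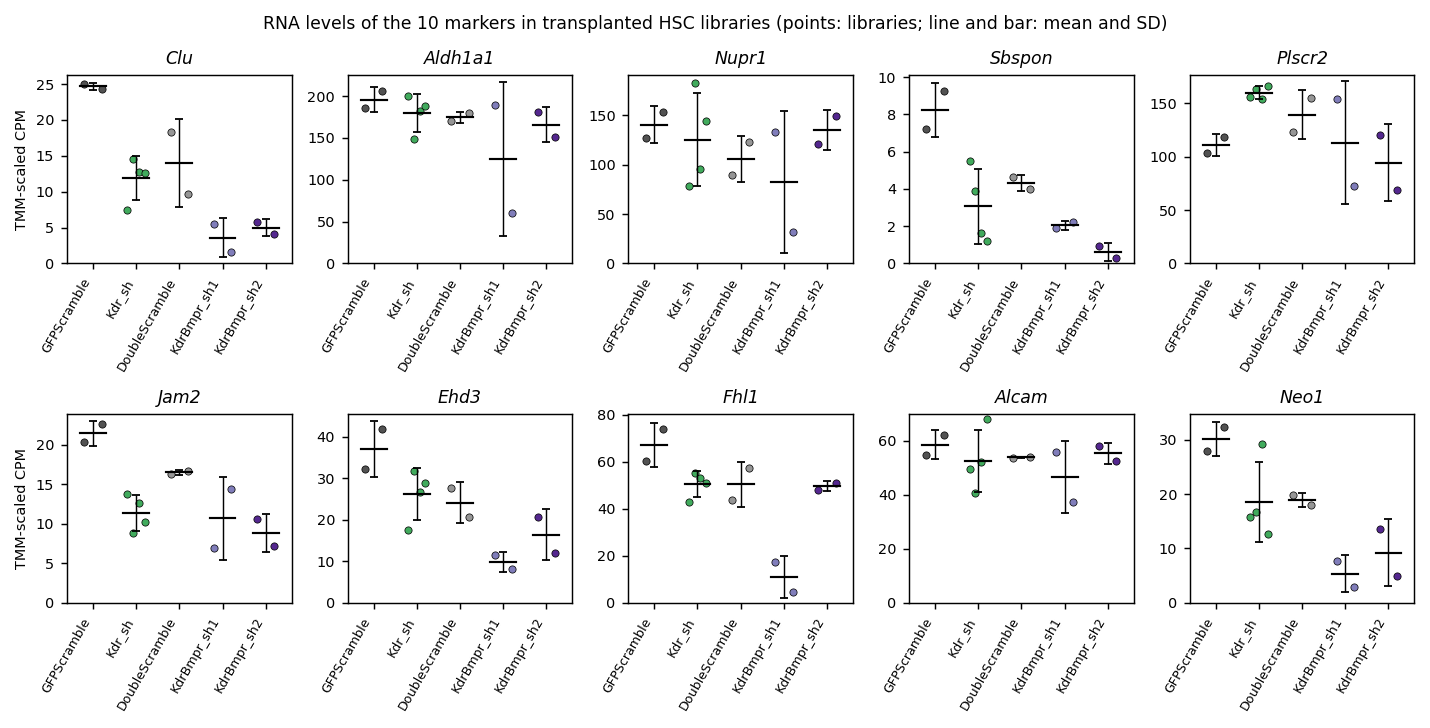
TMM-scaled CPM of each gene in the 12 transplanted libraries by hairpin group (points are libraries, the line and bar are the mean and SD). Clu and Jam2 were lower with the Kdr hairpin than with the GFP scramble in all 4 libraries, Plscr2 was higher, and the spread between the 2 KdrBmpr_sh1 libraries was wide for Aldh1a1, Nupr1 and Plscr2.

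With the Kdr hairpin, edgeR called none of the 10 genes, where 0.0149% of all genes were called lower. At an unadjusted p below 0.05 were 7 of the 10, and 1789 of all 20098 genes tested. DESeq2 called 3 of the 10 (0.771% of all genes lower and 0.736% higher). Clu read 25.0 and 24.4 CPM in the GFP scramble and 7.51, 14.6, 12.8 and 12.6 with the hairpin (log2 -1.05 ± 0.23, adjusted p = 0.271 by edgeR and 0.00259 by DESeq2). Jam2 read 20.4 and 22.6 against 13.8, 8.88, 12.6 and 10.2 CPM (-0.92 ± 0.19, adjusted p = 0.254 and 0.00169). Plscr2 went the other way, 103 and 118 against 156, 164, 154 and 166 CPM (0.53 ± 0.08, adjusted p = 0.183 and 1.04e-06). Of the 10, 5 were lower without overlap (Clu, Sbspon, Jam2, Ehd3 and Fhl1, against 11.3% of all genes) and 1 was higher (Plscr2, against 10.6%). Sbspon was scarce here, at 7.23 and 9.24 CPM in the scramble and 1.22 to 5.48 with the hairpin. Progenitor markers summed to 498 to 540 CPM in the scramble and 654 to 1722 with the hairpin, and HSC markers to 3692 to 3918 and 3095 to 3493. Their part was not tested.

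With hairpins against Kdr and Bmpr1a together, edgeR again called none of the 10, where 0.00498% of all genes were called. An unadjusted p below 0.05 was seen for 5 of the 10 and for 1977 of all 20072 genes tested. DESeq2 called Clu (0.872% of all genes lower). Clu read 18.3 and 9.69 CPM in the double scramble and 5.56, 1.67, 5.84 and 4.14 in the 4 double-hairpin libraries (log2 -1.70 ± 0.45, adjusted p = 0.321 by edgeR and 0.0153 by DESeq2). Jam2 had 16.3 and 16.7 against 6.99, 14.3, 10.6 and 7.14 CPM, and Neo1 19.8 and 18.0 against 7.78, 2.98, 13.6 and 4.84. These genes and Sbspon were lower without overlap, against 10.8% of all genes. Plscr2, at 123 and 155 against 154, 72.3, 120 and 68.6 CPM, overlapped. Without KdrBmpr_sh1 replicate 2, the log2 differences of Clu, Jam2 and Neo1 were -1.43, -0.999 and -1.11, that of Aldh1a1 moved from -0.26 to -0.01 and that of Fhl1 from -0.73 to -0.37, and none was called.

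Neither the contrast between the Bmpr1a hairpins nor the difference between the double and the single knockdown gave a call in edgeR. DESeq2 called none of the 10 in either. Between the hairpins, 2 of the 10 had an unadjusted p below 0.05, as did 1625 of all 19149 genes tested. Between the double and the single knockdown 1 did, Plscr2 (log2 difference -0.95 ± 0.36, adjusted p = 0.9999), as did 760 of all 21250 genes. Fhl1 differed most between hairpins, at 17.4 and 4.72 CPM with hairpin 1 and 48.1 and 51.0 with hairpin 2 (log2 2.17 ± 0.54, adjusted p = 0.432). Without KdrBmpr_sh1 replicate 1, which leaves a lone hairpin 1 library assumed to vary like hairpin 2, 3 genes were called, and without any other library 0.

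At the promoters, histone marks were available for OCR HSCs in 2 libraries each and were not analysed here for OAL. Values are mean signal per base in 750 bp after the start for H3K4me3, the mark of active promoters, and 2000 bp for H3K27me3, the Polycomb mark, after the authors had scaled every library to the same number of reads. A gene with several starts was given the median of them. H3K4me3 was highest at the CpG-rich Alcam promoter printed above, with 44.4 and 39.9, above 96.6% and 94.2% of 25127 genes. Jam2 (37.1 and 34.2), Nupr1 (35.6 and 35.2), Ehd3 (32.2 and 27.7) and Neo1 (26.3 and 23.5) also exceeded the all-gene medians of 9.15 and 8.63 well beyond the gap between the libraries. Clu (8.96 and 8.66), Plscr2 (9.00 and 6.88) and Sbspon (13.4 and 13.0) lay near the median. The mean RNA of Clu in OCR was 28.8 CPM per kb, behind Nupr1 (65.0), Aldh1a1 (54.6) and Fhl1 (38.9).

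Start sites within a gene differed. At Aldh1a1 the start of the printed promoter carried 17.6 and 15.4 of H3K4me3 and the upstream start 0.488 and 0.0884. At Fhl1 the upstream pair of starts carried 13.3 to 15.4, and the other pair, in the GC-poor windows, 0.161 to 0.795. H3K27me3 was low at most of the 10. Neo1 had the most, 1.35 and 1.94, above 84.0% and 87.7% of genes and below the 90th percentiles of 2.62 and 2.58. Sbspon (0.793 and 0.943) followed, and then Jam2 (0.602 and 0.514) and Aldh1a1 (0.435 and 0.578). At Aldh1a1 the upstream start carried 0.674 and 0.985 of H3K27me3 and the start of the printed promoter 0.195 and 0.170. The medians of all genes were 0.330 and 0.334 for H3K27me3, so that Neo1, Sbspon and Jam2 lay above the median for both marks in both libraries. Aldh1a1, as the median over its starts, lay above it for H3K27me3 only.

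**Figure D4:**
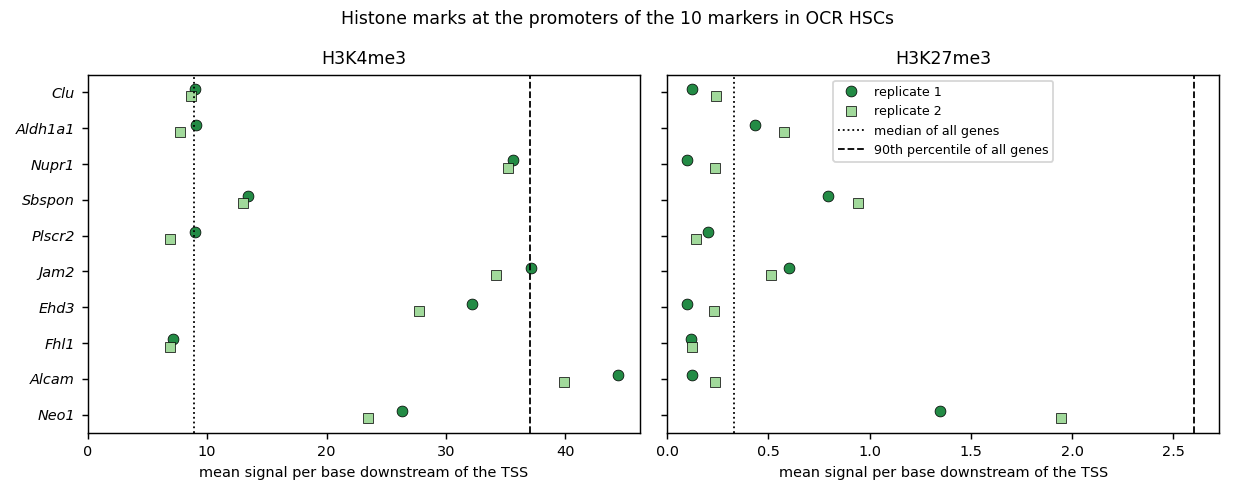
Mean signal per base of H3K4me3 (left) and H3K27me3 (right) at the 10 genes in the 2 OCR libraries, as the median over start sites, with the median and 90th percentile of all genes, averaged over the libraries, as lines. Alcam was above the H3K4me3 90th percentile in both libraries, and no gene reached that of H3K27me3.

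Chromatin accessibility was measured by ATAC-seq in OCR (4 libraries) and OCRRF (2 libraries), with 15721335 to 19558148 reads in consensus peaks, of which 123372 were tested, and the OAL libraries were not analysed here. Peaks within 1 kb of a start numbered 12, at least 1 for each gene, and 124 lay within 50 kb, including 120 of the tested peaks. By edgeR none of them differed between OCR and OCRRF (adjusted p below 0.05 and fold above 1.5), where 0.294% of all peaks were called. Of the 120, 21 (17.5%) had an unadjusted p below 0.05, against 11.7% of all peaks tested. Of the 12 within 1 kb of a start, 6 (50.0%) did. Among the 120, DESeq2 called none of the 35 for which it gave an adjusted p, with none given for the other 85. The smallest adjusted p was 0.107, near Fhl1. At the Clu promoter (chr14:65968327-65968911) accessibility was 12.0, 14.1, 11.8 and 13.7 CPM in OCR and 17.0 and 16.1 in OCRRF (log2 -0.36 ± 0.13, adjusted p = 0.208). At the Jam2 promoter (chr16:84773898-84775286) it was 46.0, 42.8, 42.0 and 42.4 against 48.8 and 53.0 CPM (-0.23 ± 0.08, adjusted p = 0.175). Ehd3 and Nupr1 had differences of -0.24 ± 0.08 and -0.39 ± 0.18. At these 4 promoters and at the Alcam peak over its start, 5 of the 12 peaks within 1 kb of a start, the OCR libraries lay below both OCRRF libraries without passing adjustment, as they did in 10.6% of all peaks tested. Aldh1a1 (0.09 ± 0.07), Plscr2 (-0.01 ± 0.08) and Neo1 (-0.06 ± 0.14) differed by less. The Alcam peak over the promoter was the most accessible, at 140 to 150 CPM in OCR and 156 and 157 in OCRRF.

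**Figure D5:**
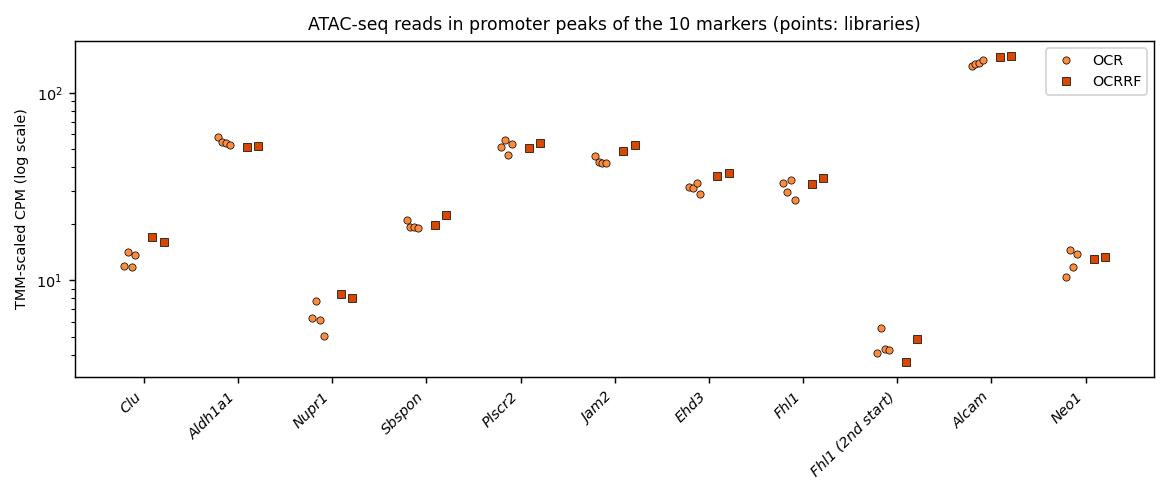
TMM-scaled CPM (log axis) of ATAC-seq reads in the peaks at the starts of the 10 genes (the Alcam peak at -947 bp is left out) in 4 OCR and 2 OCRRF libraries (points are libraries, and Fhl1 has 2 peaks). Alcam was the most accessible and the second Fhl1 start the least, and the OCRRF points of Clu, Nupr1, Jam2, Ehd3 and Alcam sit above all OCR points.

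PU.1, a transcription factor of blood lineages, was mapped in OAL, OCR and OCRRF HSCs with 2 libraries each, which had 2262 to 5464 peaks. No library had a peak within 1 kb of a start of the 10 genes. Within 50 kb, 15 peaks fell into 6 sites near Alcam, Fhl1, Nupr1 and Plscr2, and each overlapped an ATAC peak. The site found in most libraries was in an Alcam intron 35.6 kb after the start (chr16:52417118-52417472), called in OAL replicate 2, both OCR libraries and OCRRF replicate 2 with fold enrichments of 6.10 to 9.23. Beside Nupr1, a site in a Cln3 exon (chr7:126584476-126584880) was called in both OAL libraries and OCR replicate 1, and one in an intron of Sgf29 (chr7:126655785-126656086) in OAL replicate 1 and both OCR libraries. The Fhl1 intron site (chrX:56741506-56741780) appeared in both OCR libraries, that near Plscr2, which is intergenic (chr9:92301165-92301519), in OAL replicate 2 and OCR replicate 1, and a site in another part of the Alcam intron (chr16:52450582-52450803) in OCRRF replicate 2 only. Peaks were called in each library on its own, and OCR replicate 1 had the most in all, so absence in a library is no test between diets. The 2 sites called in most libraries near Alcam and upstream of Nupr1 read as follows over 201 bases on the plus strand, centred on the summit, with GAGGAA or its complement in capitals.
Alcam intron, chr16:52417180-52417380: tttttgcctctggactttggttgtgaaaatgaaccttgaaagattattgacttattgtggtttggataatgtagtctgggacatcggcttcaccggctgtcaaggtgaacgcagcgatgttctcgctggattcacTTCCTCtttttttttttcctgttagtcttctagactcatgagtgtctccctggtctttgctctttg
Sgf29 intron near Nupr1, chr7:126655828-126656028: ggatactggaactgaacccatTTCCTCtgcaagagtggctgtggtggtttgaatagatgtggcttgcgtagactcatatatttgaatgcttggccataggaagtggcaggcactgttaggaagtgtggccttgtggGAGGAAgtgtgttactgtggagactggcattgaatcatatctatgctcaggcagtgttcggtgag
GAGGAA was found in 5 of the 6 windows, the exception being the Alcam site of OCRRF replicate 2, and in 61.4% to 64.9% of the windows of all peaks per library. Clu, Aldh1a1, Sbspon, Jam2, Ehd3 and Neo1 had no called peak within 50 kb. How many of all genes have a peak this near is not given here, so the counts near the 10 are not set against it.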

How the data were processed

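RNA was measured in 22 native and 12 transplanted HSC libraries. The authors aligned reads to mm10 with STAR and deposited raw counts per gene from featureCounts (strand and multimapping settings are not given in the sources used here, so reads shared by overlapping genes could not be separated). The authors also deposited ATAC-seq counts in consensus peaks, histone signal per base downstream of each RefSeq start, and a MACS2 peak list per PU.1 library with a score, a fold enrichment ratio and -log10 p- and q-values. PU.1 replicates 1 and 2 used different antibodies.

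CPM was scaled by TMM, and edgeR 4.0.16 was run separately on the libraries of each contrast (filterByExpr, quasi-likelihood F-test, Benjamini-Hochberg over all genes or peaks, called at adjusted p below 0.05 and fold above 1.2, or 1.5 for peaks). Alternatives were DESeq2 1.42.0, DESeq2 size factors, omitting the filter or requiring 10 counts throughout, TMM on genes averaging 5 CPM or more, a replicate block, 1 fit of the 6 native groups, and leaving out each library. The fits were tested on simulated counts. The 10 genes and all lists were chosen with earlier results of these data known. Named genes outside the 10 were called relatives, the 3 largest changes per direction of the signature (5 CPM or more on average), and the 5 genes most like the 10. Same-numbered libraries did not deviate together (r -0.112 to 0.097 over 42 pairs), so numbers were not taken as pairs. GENCODE M21 gave gene positions and RefSeq on GRCm38 the promoters. Some genes of the related lists are not reported here.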

Additional observations from a re-analysis of the deposited data

Results flagged for a closer look

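In each group of 4 or more libraries the highest and lowest values of the 10 genes were compared with the others by Dixon's test at the 95% level, 70 groups in all, of which chance alone would flag about 1 in 20. The test singled out 2 values. Neo1 read 31.7 CPM in YCR replicate 3 against 14.7 to 16.6 CPM in the other YCR libraries. Without that library Neo1 and Clu were still called lower in YCR than in YAL. Sbspon read 9.39 CPM in YAL replicate 2 against 4.61 to 5.17 CPM in the other YAL libraries, and without that library Sbspon was still called higher in OAL than in YAL.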

How the results depend on the processing

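Values here are how many of the 10 genes were called. In OCR versus OAL 7 were called, 3 in 1 fit of the 6 native groups, 8 with the replicate block, and 7 to 8 leaving out a library. In OCRRF versus OCR the 5 became 0 in 1 fit and 3 to 5 leaving out a library. In OCRRF versus OAL the count of 3 was 5 without a filter, 1 with TMM factors from genes of at least 5 CPM and 0 in 1 fit. It was 4 with the replicate block and 0 to 1 leaving out a library. The 1 with those TMM factors was not among the 3 but was Neo1, called higher. Neo1 was also called higher without a filter and with 10 counts required throughout, where Plscr2 lost its call. In YCR versus YAL the 2 became 0 with the replicate block and 0 to 2 leaving out a library. From 0, YCRRF versus YCR rose to 2 with DESeq2, 3 without a filter, 4 in 1 fit and 0 to 1 leaving out a library, the Kdr knockdown to 3 with DESeq2 and without a filter, the double knockdown to 1 with DESeq2, the hairpin contrast to 0 to 3 leaving out a library, and the old minus young response to 1 with DESeq2 and 0 to 1 leaving out a library (1 without YCR replicate 3). Leaving out libraries for the hairpins, and 1 fit for the responses, were chosen after seeing the data. Called ATAC-seq peaks rose from 0 to 3 with the replicate block, PU.1 sites dropped from 6 to 2 within 10 kb, and the median H3K4me3 of the 10 was 20.7 at the start with the highest signal against 19.0 over all starts. In OAL versus YAL and OCR versus YCR 9 to 10 of 10 were called leaving out a library. The blocked fits share replicate numbers only, and the causes of these changes were not tested. No difference that edgeR called with all libraries changed its direction among the alternatives. Aldh1a1 between the Bmpr1a hairpins, called without KdrBmpr_sh1 replicate 1 alone (log2 1.46), was at -0.20 without KdrBmpr_sh1 replicate 2. Of 140 gene and comparison pairs, 78 were called under no setting, and 30 of those changed sign under 1 or more. OCRRF, both scrambles and each Bmpr1a hairpin had 2 libraries.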
